A study of Mus musculus with 9 samples.

Results

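Cystatins and cathepsins are the inhibitors and proteases of one proteolytic system, and 10 of their genes are described here in brains of 5xFAD mice with and without amylin. The genes are the cystatins Cst7, Cst3 and Cstb, the cysteine cathepsins Ctss, Ctsz, Ctsc, Ctsh, Ctsl and Ctsb, and the aspartic protease Ctsd. Each was chosen by name, with earlier results of these data known. Each was read from the probe set that names it and no other gene, which gave 10 of the 19938 genes measured. Exactly 1 such probe set existed for each of them.

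Total RNA was hybridised to 9 Affymetrix mouse gene arrays, in 3 groups of 3 labelled biological replicates. The groups were 5xFAD mice injected with human amylin, 5xFAD mice injected with PBS, and B6SJLF1/J wild-type (WT) mice injected with PBS. Injections were intraperitoneal and daily for 10 weeks in all groups, and the mice were about 5 months old. No WT mice with amylin were among the samples. The 5xFAD line carries human transgenes under the neuronal Thy1 promoter and develops amyloid plaques. Human amylin, which pancreatic beta cells release together with insulin, is a peptide hormone. The sample labels give the tissue as brain and the series description as cortex. Sex, the background strain of the 5xFAD mice and any pooling of animals are not given in the sources used here.

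Cathepsins are made as inactive precursors, sorted to endosomes and lysosomes, and activated by cleavage in the acidic lumen, where they degrade proteins taken up by endocytosis or autophagy. Cystatins bind in the active-site cleft of papain-like cysteine cathepsins and block them reversibly. Cathepsin D, an aspartic protease, is not a target of cystatins. In the brain the highest levels of many of these genes are found in microglia, the resident macrophages, and Cst7 is a known marker of microglia around amyloid plaques.

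All values are log2 intensities, and differences are on that scale unless given as fold. The median log2 value per array lay between 5.71 and 5.79, and differences between 5xFAD-PBS and WT had a standard error (SE) of 0.07 in the median over genes. Markers of brain regions differed with genotype. The mean of 5 striatal markers was 9.26 to 9.37 in 5xFAD-amylin, 9.28 to 9.48 in 5xFAD-PBS and 7.43 to 7.72 in WT arrays, and all 5 rose in both 5xFAD groups. All 6 thalamic markers fell in both, with list means of 7.09 to 7.79 in 5xFAD-amylin, 7.30 to 7.57 in 5xFAD-PBS and 8.38 to 8.59 in WT. Of 6 hippocampal markers 4 fell in both, with means of 6.57 to 6.70 in 5xFAD-amylin, 6.56 to 6.66 in 5xFAD-PBS and 7.55 to 7.57 in WT. None of 5 cortical markers passed the limma test at an adjusted p under 0.05 (1 was higher at an unadjusted p under 0.05 in each 5xFAD group), and their means were 9.44 to 9.48 in 5xFAD-amylin, 9.25 to 9.62 in 5xFAD-PBS and 9.19 to 9.45 in WT. Of 11 microglial markers 10 rose in each 5xFAD group (all but C1qb), with list means of 7.84 to 8.26 in 5xFAD-amylin, 7.95 to 8.44 in 5xFAD-PBS and 7.12 to 7.14 in WT. Over all 19938 genes, 1741 were higher and 2083 lower at an unadjusted p under 0.05 in 5xFAD-amylin against WT. In 5xFAD-PBS against WT 1816 were higher and 2413 lower. All such counts against WT, here and below, are to be read beside these numbers. The part of these marker differences in the results below was not tested, except that values relative to the microglial markers are given. The labels do not tell how the tissue was dissected in each group. A difference in dissection between 5xFAD and WT arrays could not be told apart from one of genotype, and was not tested. In bulk tissue, fewer cells of a type and less RNA per cell cannot be told apart.

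**Figure D1:**
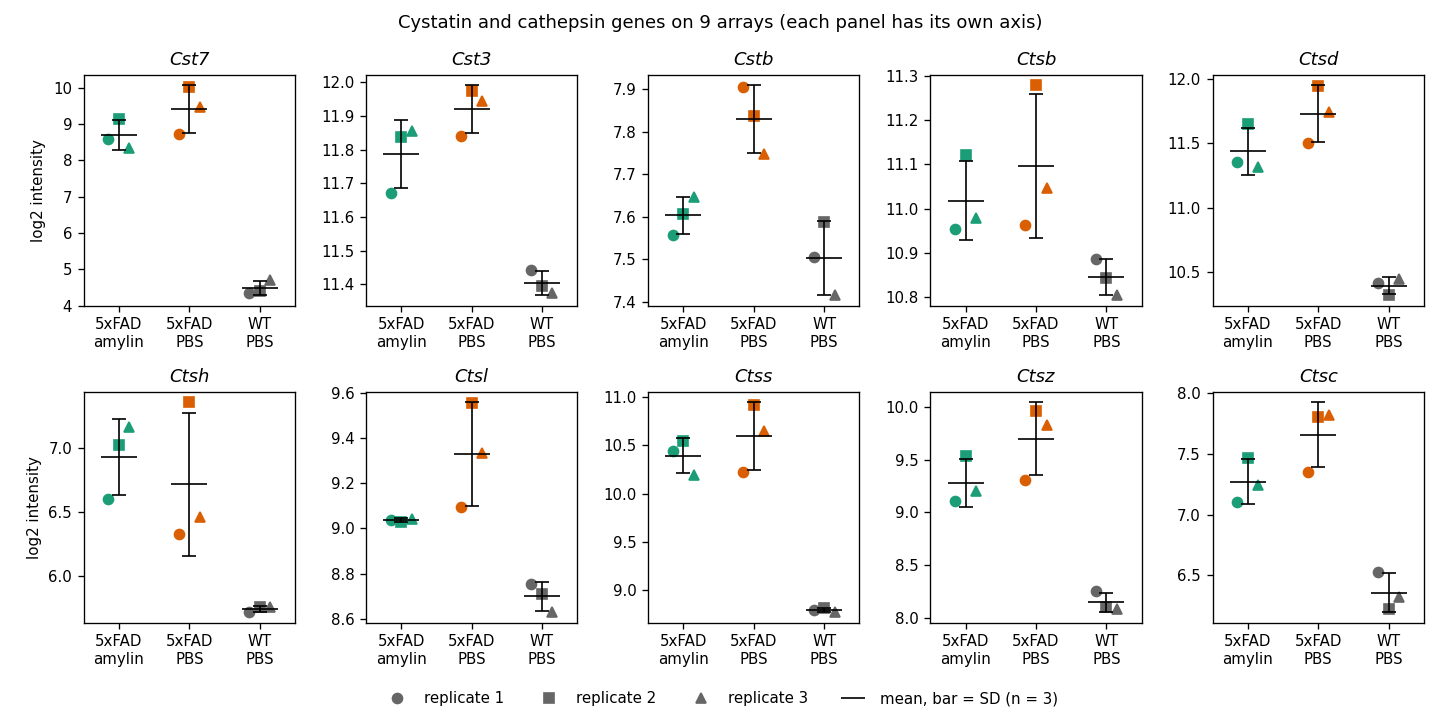
Log2 intensity of the 10 cystatin and cathepsin genes on each of the 9 arrays, with 1 panel per gene; points are arrays, black marks are group means with their SD (n = 3), each panel has its own axis, and the groups run from 5xFAD-amylin through 5xFAD-PBS to WT-PBS. Cst7 averaged 8.69 in 5xFAD-amylin and 9.41 in 5xFAD-PBS arrays against 4.48 in WT, while Ctsb spans less than 1 log2 unit over all 9 arrays.

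The 3 cystatins differ in where they act. Cst7 encodes cystatin F, an inhibitor targeted to endosomes and lysosomes of immune cells, where cathepsin C is among its known targets. Its probe set (10476945) read 8.58, 9.15 and 8.34 in 5xFAD-amylin, 8.71, 10.03 and 9.48 in 5xFAD-PBS, and 4.34, 4.40 and 4.71 in WT. All 6 5xFAD arrays stood above all 3 WT arrays, by at least 3.63 log2 units, and the 5xFAD groups overlapped each other. Cst7 rose in 5xFAD-amylin by 4.21 ± 0.30 (SE) over WT, which is 18.5-fold (limma adjusted p = 0.000163). In 5xFAD-PBS it rose by 4.92 ± 0.30, or 30.4-fold with a 95% interval of 18.9 to 48.7 (adjusted p = 4.24e-05). The WT values lie below the array medians, and no detection call was part of the values used here, so how much of the WT reading is background is unknown. The folds are therefore ratios of the intensities as given, with an interval that covers only the spread between arrays, and they would be lower bounds if the WT reading were background.

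Cst3, cystatin C, is secreted and is the main cysteine protease inhibitor of the cerebrospinal fluid. It read 11.67, 11.84 and 11.85 in 5xFAD-amylin, 11.84, 11.98 and 11.94 in 5xFAD-PBS, and 11.44, 11.39 and 11.37 in WT. The 5xFAD arrays were again all above the WT arrays. The differences were small in size but large against the spread: Cst3 rose by 0.38 ± 0.06 (1.30-fold) in 5xFAD-amylin (limma adjusted p = 0.00899) and by 0.52 ± 0.06 (1.43-fold) in 5xFAD-PBS (adjusted p = 0.00139).

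Cstb, cystatin B or stefin B, is an intracellular inhibitor of the cytosol and nucleus. Its values were 7.56, 7.61 and 7.65 in 5xFAD-amylin, 7.91, 7.84 and 7.75 in 5xFAD-PBS, and 7.50, 7.59 and 7.42 in WT. The 5xFAD-PBS arrays were above all others, and the 5xFAD-amylin arrays overlapped with WT. Cstb rose in 5xFAD-PBS by 0.33 ± 0.06 (1.25-fold, limma adjusted p = 0.0117). In 5xFAD-amylin it differed from WT by 0.10 ± 0.06, with a 95% interval of -0.04 to 0.24, and did not pass (adjusted p = 0.438).

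Among the 7 cathepsins, Ctss had the largest differences from WT in both 5xFAD groups. Cathepsin S cleaves the invariant chain of MHC class II and, unlike most of the family, stays active at neutral pH. It read 10.44, 10.54 and 10.20 in 5xFAD-amylin, 10.23, 10.92 and 10.65 in 5xFAD-PBS, and 8.79, 8.82 and 8.78 in WT. The WT arrays were tightly grouped, with an SD of 0.02, and all 6 5xFAD arrays lay at least 1.37 log2 units above them. Ctss rose by 1.60 ± 0.15 (3.02-fold) in 5xFAD-amylin (limma adjusted p = 0.000677) and by 1.80 ± 0.15 (3.48-fold) in 5xFAD-PBS (adjusted p = 0.000227).

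Ctsz encodes a carboxypeptidase that removes single residues from the carboxyl end of its substrates. It read 9.10, 9.54 and 9.20 in 5xFAD-amylin, 9.30, 9.96 and 9.83 in 5xFAD-PBS, and 8.25, 8.10 and 8.08 in WT. The 5xFAD arrays were all above WT. Ctsz rose by 1.14 ± 0.16 (2.20-fold) in 5xFAD-amylin (limma adjusted p = 0.00505) and by 1.56 ± 0.16 (2.94-fold) in 5xFAD-PBS (adjusted p = 0.0007).

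Ctsd encodes cathepsin D, the main aspartic endopeptidase of the lysosome. Its values were 11.35, 11.65 and 11.32 in 5xFAD-amylin, 11.50, 11.94 and 11.75 in 5xFAD-PBS, and 10.42, 10.32 and 10.45 in WT. The lowest 5xFAD array stood 0.871 log2 units above the highest WT array. Ctsd rose by 1.05 ± 0.12 (2.06-fold) in 5xFAD-amylin (limma adjusted p = 0.00137) and by 1.34 ± 0.12 (2.53-fold) in 5xFAD-PBS (adjusted p = 0.000258).

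Ctsc, cathepsin C, is a dipeptidyl peptidase that activates the serine proteases of leukocyte granules. It read 7.10, 7.47 and 7.25 in 5xFAD-amylin, 7.35, 7.81 and 7.82 in 5xFAD-PBS, and 6.53, 6.22 and 6.32 in WT. The groups of each 5xFAD comparison with WT did not overlap. Ctsc rose by 0.92 ± 0.14 (1.89-fold) in 5xFAD-amylin (limma adjusted p = 0.00691) and by 1.30 ± 0.14 (2.47-fold) in 5xFAD-PBS (adjusted p = 0.000753).

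Ctsh, cathepsin H, acts mainly as an aminopeptidase and was the most variable of the 7 within the 5xFAD groups. It read 6.60, 7.02 and 7.16 in 5xFAD-amylin, 6.32, 7.35 and 6.46 in 5xFAD-PBS, and 5.72, 5.76 and 5.75 in WT. The SD was 0.29 in 5xFAD-amylin, 0.56 in 5xFAD-PBS and 0.02 in WT, with PBS replicate 2 far above the other 5xFAD-PBS arrays. Ctsh rose by 1.18 ± 0.24 (2.27-fold) in 5xFAD-amylin (limma adjusted p = 0.0217) and by 0.97 ± 0.24 (1.96-fold) in 5xFAD-PBS (adjusted p = 0.0364). Neither call held in every fit. That of 5xFAD-amylin was lost without WT replicate 1, 2 or 3 (adjusted p = 0.0944, 0.0719 and 0.0712) and without amylin replicate 2 or 3 (0.0631 and 0.089). That of 5xFAD-PBS was lost without WT replicate 1, 2 or 3 (0.124, 0.0965 and 0.104), amylin replicate 2 (0.054) or PBS replicate 3 (0.0596), and in a fit of only those 2 groups (0.0726). In the fits without a WT array the SE was 0.29, and the differences changed little. They were 1.17, 1.19 and 1.19 in 5xFAD-amylin, and 0.96, 0.98 and 0.98 in 5xFAD-PBS. The 5xFAD-amylin call was stronger without PBS replicate 2 (limma adjusted p = 0.00221), in a fit of 2 groups (0.0072) and with array weights (0.00486). For 5xFAD-PBS, the adjusted p was 0.0134 with array weights and 0.0366 without PBS replicate 2, where the difference was 0.65.

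Ctsl and Ctsb, the endopeptidases cathepsin L and cathepsin B, showed the smallest differences from WT of the 7. Ctsl read 9.04, 9.03 and 9.04 in 5xFAD-amylin, 9.10, 9.56 and 9.33 in 5xFAD-PBS, and 8.76, 8.71 and 8.63 in WT. The 3 groups did not overlap at all, with 5xFAD-amylin between the other two. Ctsl rose in 5xFAD-PBS by 0.63 ± 0.10 (1.55-fold, limma adjusted p = 0.00469). Its difference of 0.34 ± 0.10 between 5xFAD-amylin and WT did not pass (adjusted p = 0.0875), but did without PBS replicate 1 (0.0239) or PBS replicate 2 (0.0275), in a fit of only those 2 groups (0.0155), with array weights (0.0435) and with the lowest 50% of genes left out (0.0484).

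Ctsb read 10.95, 11.12 and 10.98 in 5xFAD-amylin, 10.96, 11.28 and 11.05 in 5xFAD-PBS, and 10.89, 10.84 and 10.80 in WT. Every 5xFAD array was above every WT array, by as little as 0.067 where they came closest. Its differences from WT of 0.17 ± 0.08 in 5xFAD-amylin (limma adjusted p = 0.295) and 0.25 ± 0.08 in 5xFAD-PBS (adjusted p = 0.102) did not pass. With quantile normalization repeated on the genes, the 5xFAD-PBS difference was 0.32 and passed (adjusted p = 0.0275), and without PBS replicate 2 it was 0.16 (adjusted p = 0.232).

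Promoter windows of 300 bases, from 250 before to 50 after the start of the gene, were available for 7 of the 10 genes from RefSeq (GRCm38.p6), namely Cst7, Cst3, Ctsd, Ctsl, Ctss, Ctsz and Ctsc. They were searched on both strands for the E-box CACGTG, for the palindrome TCACGTGA bound by the lysosomal regulator TFEB and its relatives, which contains the E-box, and for GAGGAAGT, a motif of the myeloid factor PU.1. Shown are Ctsd, the gene with the palindrome, and Ctss and Ctsc, the genes with the PU.1 motif. Capitals mark the motif, and the PU.1 motif reads ACTTCCTC where it lies on the opposite strand.
Ctsd (chr7:142387778-142388077, minus strand): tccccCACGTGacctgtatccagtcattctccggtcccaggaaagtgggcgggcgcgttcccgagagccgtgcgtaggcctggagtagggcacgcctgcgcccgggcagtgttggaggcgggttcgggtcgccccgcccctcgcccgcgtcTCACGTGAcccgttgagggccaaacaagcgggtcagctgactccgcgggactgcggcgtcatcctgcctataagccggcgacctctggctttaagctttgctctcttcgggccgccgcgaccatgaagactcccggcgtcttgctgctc
Ctss (chr3:95526536-95526835, plus strand): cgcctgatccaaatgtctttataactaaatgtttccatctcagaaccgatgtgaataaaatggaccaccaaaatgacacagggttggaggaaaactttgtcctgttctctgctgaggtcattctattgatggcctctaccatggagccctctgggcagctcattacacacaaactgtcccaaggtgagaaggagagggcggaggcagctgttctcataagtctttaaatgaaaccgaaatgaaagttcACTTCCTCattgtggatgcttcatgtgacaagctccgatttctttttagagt
Ctsc (chr7:88277835-88278134, plus strand): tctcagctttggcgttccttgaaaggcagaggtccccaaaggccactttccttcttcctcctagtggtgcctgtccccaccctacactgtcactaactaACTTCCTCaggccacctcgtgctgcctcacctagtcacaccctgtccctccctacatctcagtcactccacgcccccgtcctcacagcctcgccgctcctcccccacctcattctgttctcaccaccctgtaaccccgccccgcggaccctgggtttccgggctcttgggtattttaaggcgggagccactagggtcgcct

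In Ctsd the first E-box lies from -245 to -240 relative to the start, and the palindrome from -99 to -92, with the second E-box inside it. Ctsl holds 1 E-box, from -236 to -231. The E-box occurs in 7.15% and the palindrome in 0.974% of 32851 windows of this length. The PU.1 motif lies from -2 to 6 in Ctss and from -151 to -144 in Ctsc, and occurs in 3.2% of windows. None of these letters were found in the windows of Cst7, Cst3 and Ctsz. These matches are descriptions of sequence, and no binding was measured.

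Counted over the 10 genes, 7 rose and 0 fell in 5xFAD-amylin against WT, while 2.35% of all genes rose at the same threshold (limma adjusted p under 0.05). The 3 that did not pass were Cstb, Ctsb and Ctsl. In 5xFAD-PBS against WT 9 rose, all but Ctsb, against 3.66% of all genes. The arrays of the compared groups did not overlap, with 5xFAD higher, for 9 of the 10 genes in 5xFAD-amylin (10.8% of all genes) and for all 10 in 5xFAD-PBS (11.2%). The median difference of the 10 genes was 0.98 in 5xFAD-amylin and 1.14 in 5xFAD-PBS, against medians of all genes of -0.01 in both. With at least 1.5-fold required as well, 6 rose in 5xFAD-amylin (0.953% of all genes) and 7 in 5xFAD-PBS (1.29%). Leaving out single arrays gave 6 to 8 genes that rose in 5xFAD-amylin and 8 to 9 in 5xFAD-PBS. Both comparisons use the same 3 WT arrays, so their agreement is not independent.

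**Figure D2:**
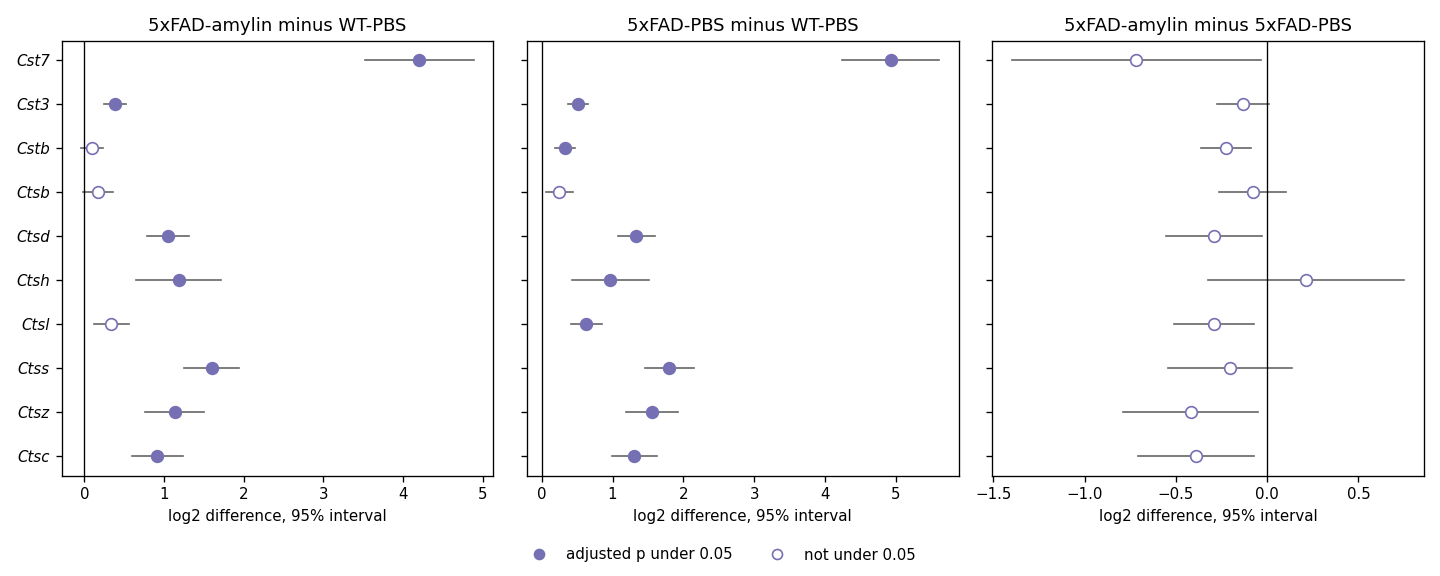
Differences in log2 intensity with their 95% intervals for the 10 genes, in 3 panels: 5xFAD-amylin minus WT-PBS, 5xFAD-PBS minus WT-PBS and 5xFAD-amylin minus 5xFAD-PBS. Filled points passed the limma test at an adjusted p under 0.05 (7, 9 and 0 of the 10 genes), and Cst7 lies far to the right of the others in both comparisons with WT.

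The comparison of 5xFAD-amylin with 5xFAD-PBS asks whether amylin altered these genes in 5xFAD mice. None of the 10 passed (limma adjusted p from 0.634 to 0.878), and over all genes 1 passed, which is 0.00502%. At an unadjusted p under 0.05, 6 were lower in 5xFAD-amylin, namely Cst7, Cstb, Ctsd, Ctsl, Ctsz and Ctsc, against 3.18% of all genes. Means were lower in 5xFAD-amylin for 9 of the 10, all but Ctsh, against 49.6% of all genes. Arrays did not overlap for 2 of them, Cstb and Ctsl, both lower in 5xFAD-amylin, against 3.81% of all genes.

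The median difference between 5xFAD-amylin and 5xFAD-PBS was -0.26 over the 10 genes, and less than 0.01 in size over all genes. For Cst7 it was -0.72 with a 95% interval of -1.40 to -0.04, so a decrease of more than 1.40 lies outside that interval. Ctsz differed by -0.42 (interval -0.79 to -0.05), Ctsc by -0.39 (-0.71 to -0.07), Ctsl by -0.29 (-0.51 to -0.07) and Ctsd by -0.29 (-0.55 to -0.03). The cystatins Cstb and Cst3 differed by -0.23 (-0.37 to -0.09) and -0.13 (-0.27 to 0.01). Ctss differed by -0.20 (-0.55 to 0.14), Ctsb by -0.08 (-0.26 to 0.11) and Ctsh by 0.21 (-0.32 to 0.75). The intervals are not adjusted for the number of genes.

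This pattern varied with single arrays. Relative to the WT means, the median over the 10 genes was 0.80, 1.18 and 0.91 in the 3 5xFAD-amylin arrays and 0.79, 1.5 and 1.04 in the 3 5xFAD-PBS arrays. PBS replicate 2 was the highest of the 6 5xFAD arrays for 8 of the 10 genes, and amylin replicate 1 the lowest for 5. The range of the amylin arrays lay within that of the PBS arrays. Without PBS replicate 2, the difference between 5xFAD-amylin and 5xFAD-PBS was -0.41 for Cst7, -0.29 for Ctsz and -0.04 for Ctss, and 2 genes in place of 6 were lower at an unadjusted p under 0.05, against 2.26% of all genes. In that fit Ctsh was higher in 5xFAD-amylin, by 0.53, at an unadjusted p under 0.05 (limma adjusted p = 0.73). The number lower was 2 without amylin replicate 1 (5.53% of all genes), 2 without PBS replicate 3 (3.17%), 3 without amylin replicate 3 (2.97%) and 8 without PBS replicate 1 (4%). The microglial marker means moved along with it: relative to WT they were 0.71, 1.12 and 0.85 in 5xFAD-amylin and 0.81, 1.31 and 1.26 in 5xFAD-PBS. All 11 markers had a lower mean in 5xFAD-amylin than in 5xFAD-PBS, with a median difference of -0.25, and none passed the test (1 had an unadjusted p under 0.05).

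The 10 genes were also taken relative to the mean of the 11 microglial markers on the same array. This scale was chosen after the data were seen and is given without a test. It subtracts the same value from every gene of an array, so distances between the genes stay as they were. On that scale Cst7 remained 3.31 ± 0.28 above WT in 5xFAD-amylin and 3.79 ± 0.41 in 5xFAD-PBS (SD, n = 3 each). Ctss was 0.70 ± 0.21 above WT in 5xFAD-amylin and 0.67 ± 0.12 in 5xFAD-PBS. Ctsz was 0.24 above WT in 5xFAD-amylin and 0.43 in 5xFAD-PBS, and Ctsd 0.15 in 5xFAD-amylin and 0.21 in 5xFAD-PBS, with all 5xFAD arrays above WT for each of these genes.

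Ctsc overlapped with WT in both 5xFAD groups on that scale, at 0.02 in 5xFAD-amylin and 0.18 in 5xFAD-PBS. Ctsh was 0.29 above WT in 5xFAD-amylin and overlapped with WT in 5xFAD-PBS, at -0.16. Cst3, Cstb, Ctsb and Ctsl were below WT on every 5xFAD array, by 0.50 to 0.88 in the group means. Between 5xFAD-amylin and 5xFAD-PBS, 8 genes overlapped on that scale. Ctsz and Ctsc were lower on all 3 5xFAD-amylin arrays, by 0.18 and 0.15 in the mean. The subtracted marker mean itself differed by -0.24 between these groups. The share of all genes whose groups do not overlap on that scale was not counted, here or against WT, so these counts have no background. A value below WT on that scale says that the gene differed by less than the markers did, not that its level was lower.

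**Figure D3:**
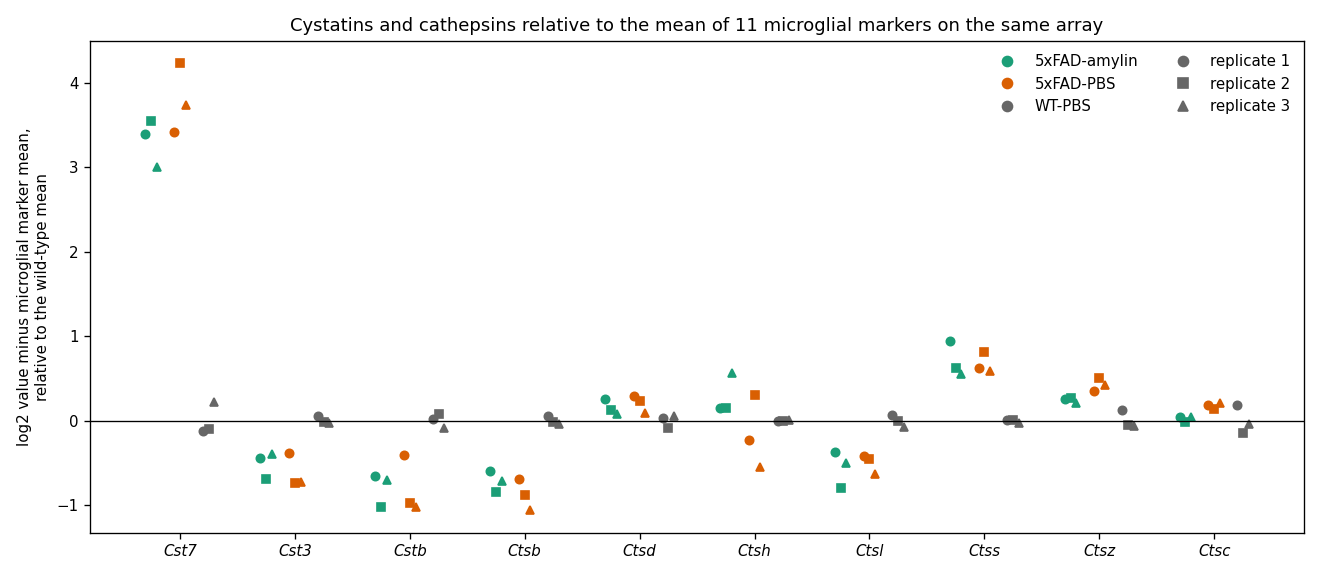
Log2 intensity of each gene minus the mean of 11 microglial markers on the same array, set to a WT mean of 0; points are arrays of the 3 groups. Cst7 stands more than 3 log2 units above the WT mean on every 5xFAD array, Ctss, Ctsz and Ctsd lie above WT, and Cst3, Cstb, Ctsb and Ctsl lie below it.

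Other members of both families were set beside these 10. The 10 genes and the lists were chosen with earlier results of these data known, so the contrast between them is not an independent result. A list of 8 further genes held other lysosomal or granule cathepsins and Lgmn, which is not a cathepsin. Of these, 3 rose in 5xFAD-PBS against WT and 0 in 5xFAD-amylin, where 3 were higher and 1 lower at an unadjusted p under 0.05. The 3 that rose were Ctsa, a carboxypeptidase that also protects other lysosomal enzymes, by 0.45 (limma adjusted p = 0.0155), Ctso by 0.41 (0.0071), and Lgmn, the asparaginyl endopeptidase that processes cathepsins, by 0.43 (0.0189). In 5xFAD-amylin their differences were 0.18 (adjusted p = 0.33), 0.26 (0.0622) and 0.32 (0.0818). The list's median was 0.15 in 5xFAD-amylin and 0.26 in 5xFAD-PBS.

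Ctse, an aspartic protease related to cathepsin D, varied more within the 5xFAD groups than any of the 10 genes, with an SD of 0.93 in 5xFAD-amylin and 2.26 in 5xFAD-PBS, against 0.04 in WT. It read 6.20, 8.0 and 7.49 in 5xFAD-amylin, 5.59, 9.71 and 9.27 in 5xFAD-PBS, and 5.11, 5.18 and 5.19 in WT. All 5xFAD arrays were above WT, but PBS replicate 1 was more than 3 log2 units below the other 5xFAD-PBS arrays. Its differences from WT of 2.07 ± 0.91 in 5xFAD-amylin and 3.03 ± 0.91 in 5xFAD-PBS did not pass (limma adjusted p = 0.256 and 0.0782). The measured placental cathepsins and other cystatins read below the array medians on every array, and their differences were small. With no detection calls, such low readings cannot be told from background, so small differences there do not show unchanged expression. None of 6 measured placental cathepsins passed (0 at an unadjusted p under 0.05), with differences from WT of -0.10 to 0.04 in 5xFAD-amylin and -0.04 to 0.05 in 5xFAD-PBS. None of 17 other cystatins passed (1 was lower at an unadjusted p under 0.05 in each comparison), with -0.21 to 0.13 in 5xFAD-amylin and -0.25 to 0.17 in 5xFAD-PBS. Several genes of the stefin A cluster are near-identical copies, so their single values are uncertain.

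Genes of the wider lysosomal pathway were counted in the same way. Of 6 other lysosomal peptidases, 3 rose in 5xFAD-PBS and 0 passed in 5xFAD-amylin, where 3 had an unadjusted p under 0.05. The 3 that rose were Tpp1, a tripeptidyl peptidase, by 0.35 (limma adjusted p = 0.0326), Prcp by 0.44 (0.0122) and Scpep1 by 0.33 (0.0201), both serine carboxypeptidases. Of 17 genes for acidification and the lysosomal membrane, 3 rose in 5xFAD-amylin and 5 in 5xFAD-PBS, and 0 fell in either. At an unadjusted p under 0.05, 5 were higher and 0 lower in 5xFAD-amylin, and 5 higher and 6 lower in 5xFAD-PBS. Of all 19938 genes, 1741 were higher and 2083 lower at that threshold in 5xFAD-amylin, and 1816 higher and 2413 lower in 5xFAD-PBS. Cd68, a membrane glycoprotein of macrophage lysosomes, rose by 1.78 in 5xFAD-amylin (adjusted p = 0.000308) and 2.47 in 5xFAD-PBS (3.49e-05). Laptm5, a lysosomal protein of blood-derived cells and microglia, rose by 1.16 in 5xFAD-amylin (0.00274) and 1.32 in 5xFAD-PBS (0.000946). Lamp2, a lysosomal membrane protein of most cells, rose by 0.36 in 5xFAD-amylin (0.00621) and 0.38 in 5xFAD-PBS (0.00282). Cd63 rose by 0.61 in 5xFAD-PBS (0.00761). The list's median was 0.01 in 5xFAD-amylin and 0.0035 in 5xFAD-PBS.

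Of 12 genes for sorting and lysosome biogenesis, none rose. At an unadjusted p under 0.05, 1 was higher and 2 lower in 5xFAD-amylin, and 2 were higher and 5 lower in 5xFAD-PBS. Mitf had the largest difference from WT, 0.39 in 5xFAD-amylin (limma adjusted p = 0.104) and 0.37 in 5xFAD-PBS (0.103), and did not pass. In 5xFAD-amylin 1 fell, Nagpa, which uncovers the mannose 6-phosphate tag, by 0.24 (limma adjusted p = 0.0483). In 5xFAD-PBS 2 fell, the sorting receptors Sort1 by 0.21 (adjusted p = 0.0456) and Igf2r by 0.20 (0.0472). Of 13 genes whose products cathepsins cleave, 1 rose in each 5xFAD group: Grn, the precursor of granulins, by 0.62 in 5xFAD-amylin (adjusted p = 0.0216) and 0.75 in 5xFAD-PBS (0.00679). None of the genes of these lists passed between 5xFAD-amylin and 5xFAD-PBS. Markers of other cells that carry cathepsins lay below the array medians: 6 leukocyte markers averaged 3.97 to 4.10 in 5xFAD-amylin, 3.99 to 4.08 in 5xFAD-PBS and 4.03 to 4.09 in WT, and 0 passed (0 at an unadjusted p under 0.05). The 4 border macrophage markers averaged 5.17 to 5.24 in 5xFAD-amylin, 5.18 to 5.24 in 5xFAD-PBS and 5.05 to 5.14 in WT, and 0 passed (1 in 5xFAD-amylin and 2 in 5xFAD-PBS at an unadjusted p under 0.05).

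**Figure D4:**
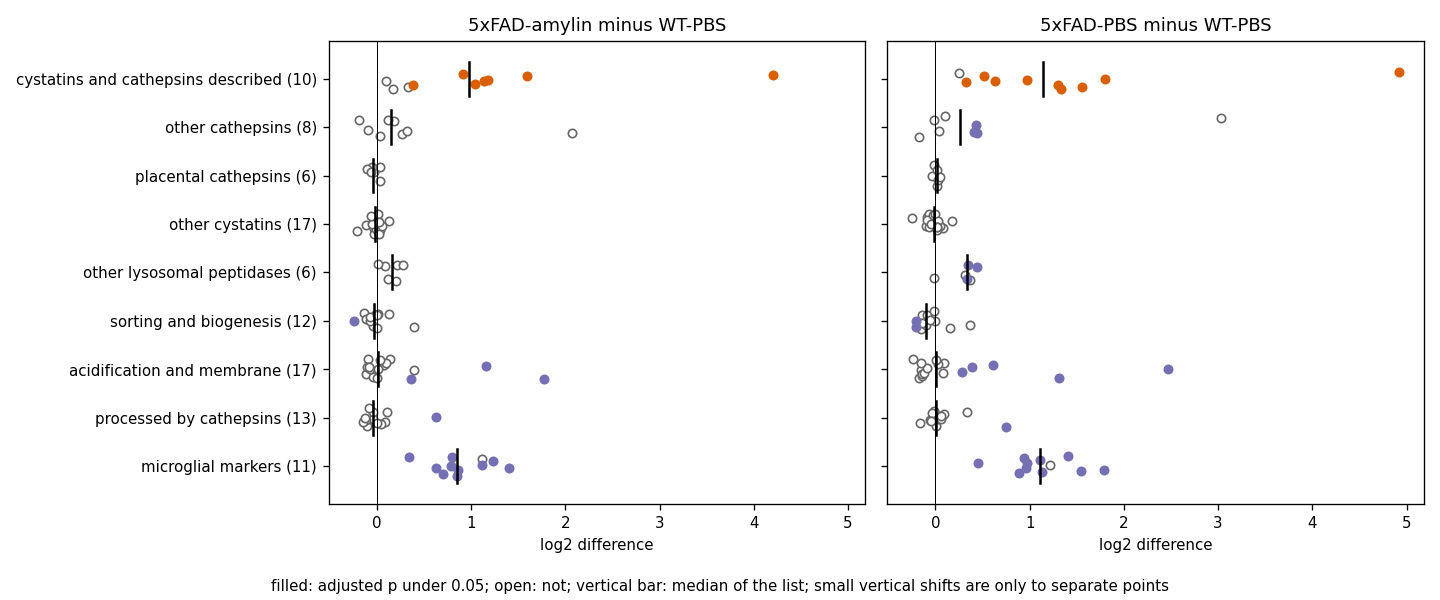
Differences from WT-PBS in log2 intensity for the genes of the related lists, with 5xFAD-amylin and 5xFAD-PBS side by side; each point is 1 gene, filled where the adjusted p was under 0.05, and each vertical bar is the median of its list. The 10 cystatins and cathepsins had medians of 0.98 and 1.14, the other cathepsins with Lgmn 0.15 and 0.26, and the other cystatins about 0. The placental cathepsins and other cystatins read below the array medians, where signal cannot be told from background. The 10 genes and the lists were chosen with earlier results of these data known.

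The genes nearest to a cystatin or cathepsin over the 9 arrays were found by root mean square distance. Log2 values were taken relative to each gene's WT mean and not scaled, so the distance reflects size of difference as well as pattern. For Cst7 the nearest was the chemokine Ccl3, at 0.953, followed by Mpeg1 at 1.46 and Lyz2 at 1.60. Relative to WT, Ccl3 differed by 3.20 in the amylin arrays and 3.72 in the PBS arrays, against 4.21 and 4.92 for Cst7. Whether a gene followed Cst7 in pattern, apart from size, was not tested. Ctss had Fcgr2b (0.0769), Cd84 (0.0857) and Plek (0.133) as its nearest genes. Ctsz had Gpr34 (0.0959), itself among the microglial markers, Tlr13 (0.109) and Lgals3bp (0.15). Ctsd had Laptm5 (0.0969), Itgb2 (0.113) and Ctsc (0.124). These distances describe likeness in size and pattern together over 9 arrays, of which 3 are WT.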

How the data were processed

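The values analysed are log2 intensities of 35556 probe sets on each of 9 arrays, as deposited by the authors. RMA and the R package oligo produced them, per the submitters' processing notes, which name no versions. RMA corrects each array's background, brings the arrays to the same quantiles and summarises probes, so a change shared by most genes would be removed. A genome build was not given in the sources used here.

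Of the probe sets, 21789 name 1 gene, 1621 several and 12146 none. For the 999 genes with more than 1 single-gene probe set, the one with the highest mean was used, which left 19938 genes, with no filter on low signal.

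The 3 groups entered limma (version 3.58.1, R 4.3.3) in 1 fit of the 9 arrays with a mean per group (lmFit and eBayes, 6 residual and 3.53 prior degrees of freedom). P-values were Benjamini-Hochberg adjusted over all genes, and a gene rose or fell where the adjusted p was under 0.05. Differences carry the SE of that fit, and the number of arrays limits their precision. The fit was tested on simulated data with independent noise for each gene. Those data hold no deviations shared by many genes of an array, so the test does not cover them. The 10 cystatin and cathepsin genes and all gene lists were chosen with earlier results of these data known. Genes named are these 10, genes of the family lists, up to 4 genes of each pathway list by p in a comparison, and the 3 nearest genes of 4 of the 10. The cell markers C1qb, Gfap and Aldoc, and Tfeb, picked after its values were seen, are named as well. Alternatives were other normalizations, low-signal filters, priors, thresholds, weights per array, a replicate block, fits of 2 groups, and leaving out each array. The labels do not say whether replicate numbers pair samples, and the main fit used no pairing.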

Additional observations from a re-analysis of the deposited data

How the results depend on the processing

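The number of genes that rose among the 10 was 7 in 5xFAD-amylin against WT and 9 in 5xFAD-PBS against WT. Leaving out each array gave 6 to 8 and 8 to 9, and none passed between 5xFAD-amylin and 5xFAD-PBS in any of these fits (0 to 0). The direction of Ctsb between 5xFAD-amylin and 5xFAD-PBS turned without PBS replicate 2, to 0.013 (limma adjusted p = 0.995; -0.15 to 0.013 when single arrays were left out), and no other gene of the 10 turned in any comparison. With the replicate number as a block, 7, 9 and 0 genes were called in the 3 comparisons, and no call among the 10 changed. For samples with the same number, deviations from the group means correlated at 0.0997, 0.13 and 0.123 between 5xFAD-amylin and 5xFAD-PBS. The values were -0.056, -0.054 and 0.141 between 5xFAD-amylin and WT, and 0.094, 0.183 and 0.064 between 5xFAD-PBS and WT. Over all genes, 1039 were called in 5xFAD-amylin and 1710 in 5xFAD-PBS against WT, and 447 to 1086 and 863 to 1779 when single arrays were left out. With 3 arrays a group and no detection calls, low readings such as Cst7 in WT and the leukocyte markers cannot be told from background.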

Other observations

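Cell markers beside the microglial ones were counted as well. Of 5 oligodendrocyte markers, 4 fell in 5xFAD-amylin and 1 in 5xFAD-PBS against WT (limma adjusted p under 0.05), with list means of 9.56 to 9.79 in 5xFAD-amylin, 9.80 to 9.96 in 5xFAD-PBS and 10.03 to 10.24 in WT. Among 7 astrocyte markers Gfap, the filament of reactive astrocytes, rose by 1.37 in 5xFAD-amylin and 1.63 in 5xFAD-PBS. Of the other 6, none passed in 5xFAD-amylin (1 was higher at an unadjusted p under 0.05), while in 5xFAD-PBS Aldoc fell and 5 did not pass, and the list's median difference from WT was 0.03 in 5xFAD-amylin and 0.02 in 5xFAD-PBS. Of 7 neuronal markers 0 passed in 5xFAD-amylin (2 were lower at an unadjusted p under 0.05) and 2 fell in 5xFAD-PBS. None of 5 endothelial markers passed in either comparison with WT, though 0 in 5xFAD-amylin and 4 in 5xFAD-PBS were higher at an unadjusted p under 0.05.

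Cd74, the invariant chain that cathepsin S cleaves, read 5.96, 5.97 and 5.97 in 5xFAD-amylin, 6.37, 5.93 and 6.31 in 5xFAD-PBS, and 5.95, 5.74 and 5.91 in WT. It did not pass in 5xFAD-PBS against WT, with a difference of 0.34 ± 0.11 (limma adjusted p = 0.0921). Tfeb, a regulator of lysosomal genes that was picked after its values were seen, differed from WT by -0.07 in 5xFAD-amylin and -0.02 in 5xFAD-PBS, and did not pass (adjusted p = 0.483 and 0.886).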
